A study of Mus musculus with 6 samples.

Results

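The interferon-stimulated genes (ISGs) of the duodenal epithelium were examined in mice that lack *Esrra*, the gene of the nuclear receptor estrogen-related receptor α. A list of 53 symbols was used, which holds the targets of interferon together with the sensors, receptors and transcription factors that drive them. Of these, 51 were found among the 22611 genes of the expression table and 2, *Ifnlr1* and *Ifi27*, were not listed under those symbols. The study profiled 3 WT and 3 *Esrra*-/- mice by RNA-seq, with 1 library per mouse. The *Esrra*-/- mice carry a germline null allele, so the gene is missing in every tissue, and the WT mice are their littermates. Animals of both genotypes were kept on a high-fat diet for about 8 weeks, and the epithelium was released from the duodenum with EDTA. Whether crypts and villi were kept together for RNA-seq is not stated outright in the sources used here. The breeding colony also carried floxed *Esrra* and a Villin-CreERT2 transgene, and the sources used here do not give the age of the sequenced mice or whether they bore these alleles.

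Interferons are secreted after a cell senses foreign or misplaced nucleic acid. RIG-I, MDA5 and LGP2, the products of *Ddx58*, *Ifih1* and *Dhx58*, sense RNA in the cytosol and signal through MAVS, while DNA is signalled through STING, the product of *Tmem173*. Type I interferons act on IFNAR and type III interferons on IFNLR. Both receptors activate a complex that holds STAT2 and IRF9 and binds the interferon-stimulated response element (ISRE), and IRF1 takes part in the response to IFN-γ. In the gut, type III interferon acts largely on epithelial cells, and a low level of ISG expression is maintained in the absence of infection.

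The ISRE can be read directly in the promoters of these genes. Promoters from RefSeq (GRCm38.p6) were at hand for 38 of the 51 genes. The 250 bases before the annotated start were searched on both strands for the core of the ISRE, GAAA and a second GAAA with any 2 bases between them. Of the 38 genes, 16 (42.1%) held it, against 3.46% of all 27025 genes with a promoter in the table. The sequences below show the 5 of these genes that were called higher in *Esrra*-/- mice and then 5 that were not, each 5′ to 3′ on the strand of the gene, with the bases of every match in capitals. *Rsad2* is at chr12:26456528-26456607 (minus strand), *Ifit1* at chr19:34640750-34640848 (plus), *Ifit3* at chr19:34583338-34583451 (plus), *Bst2* at chr8:71537552-71537637 (minus) and *Oas3* at chr5:120777690-120777769 (minus). *Isg15* is at chr4:156200840-156200931 (minus), *Oas1a* at chr5:120907526-120907580 (minus), *Oas1g* at chr5:120887614-120887666 (minus), *Igtp* at chr11:58199487-58199555 (plus) and *Irgm2* at chr11:58214878-58214957 (plus).
Rsad2: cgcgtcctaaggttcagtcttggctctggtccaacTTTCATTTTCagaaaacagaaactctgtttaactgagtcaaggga
Ifit1: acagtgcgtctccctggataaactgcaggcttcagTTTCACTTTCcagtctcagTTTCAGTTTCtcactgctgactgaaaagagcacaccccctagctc
Ifit3: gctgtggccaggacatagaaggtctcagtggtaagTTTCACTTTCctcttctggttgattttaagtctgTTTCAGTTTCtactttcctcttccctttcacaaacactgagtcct
Bst2: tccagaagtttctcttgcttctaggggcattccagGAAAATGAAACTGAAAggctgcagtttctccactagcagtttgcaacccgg
Oas3: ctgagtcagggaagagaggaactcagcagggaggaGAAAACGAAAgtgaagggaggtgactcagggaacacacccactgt
Isg15: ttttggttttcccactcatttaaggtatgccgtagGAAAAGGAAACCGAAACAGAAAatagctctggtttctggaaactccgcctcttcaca
Oas1a: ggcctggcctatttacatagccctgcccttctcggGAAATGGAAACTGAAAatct
Oas1g: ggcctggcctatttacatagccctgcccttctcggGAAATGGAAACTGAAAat
Igtp: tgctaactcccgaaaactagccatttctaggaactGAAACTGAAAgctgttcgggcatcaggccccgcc
Irgm2: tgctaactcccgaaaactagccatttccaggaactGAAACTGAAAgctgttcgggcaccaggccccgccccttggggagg

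The matches of *Ifit1* and *Ifit3* stand apart from each other within the promoter, whereas in *Bst2*, *Isg15* and *Oas1a* they overlap. The printed stretches of *Oas1a* and *Oas1g* were the same at 53 of 53 bases, and those of *Igtp* and *Irgm2* at 67 of 69. These stretches lie before the annotated start, and the transcripts were not compared here. Reads shared by genes of one family may be divided between them by the counting, so the separate values of such genes are uncertain. TTCNNNGAA, the palindromic gamma-activated site, was found in 10 of the 38 promoters (26.3%), against 8.13% of all genes, and 1 of its 12 matches overlapped a match of the ISRE core. TCAAGGTCA, the element bound by estrogen-related receptors, was found in 0 of the 38 windows, and 0.422% of all genes had it. The element is so rare in windows of this length that 0 of 38 cannot be read as a lack of it. Of the 13 tested genes with the ISRE core, 5 were called higher and the median log2 fold change was 0.63. Of the 21 tested genes whose window lacked it, 3 were called higher and the median was 0.37. Higher without overlap in *Esrra*-/- mice were 7 of the 13 and 11 of the 21 (8.45% of all genes tested). With the gamma-activated site, 1 of 8 tested genes was called higher (median 0.25), and without it 7 of 26 were (median 0.44). These differences were not tested. Over all genes tested, 1.35% were called higher and the median was 0.03. A match is a description of the letters in a window of this length and says nothing of binding.

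**Figure D1:**
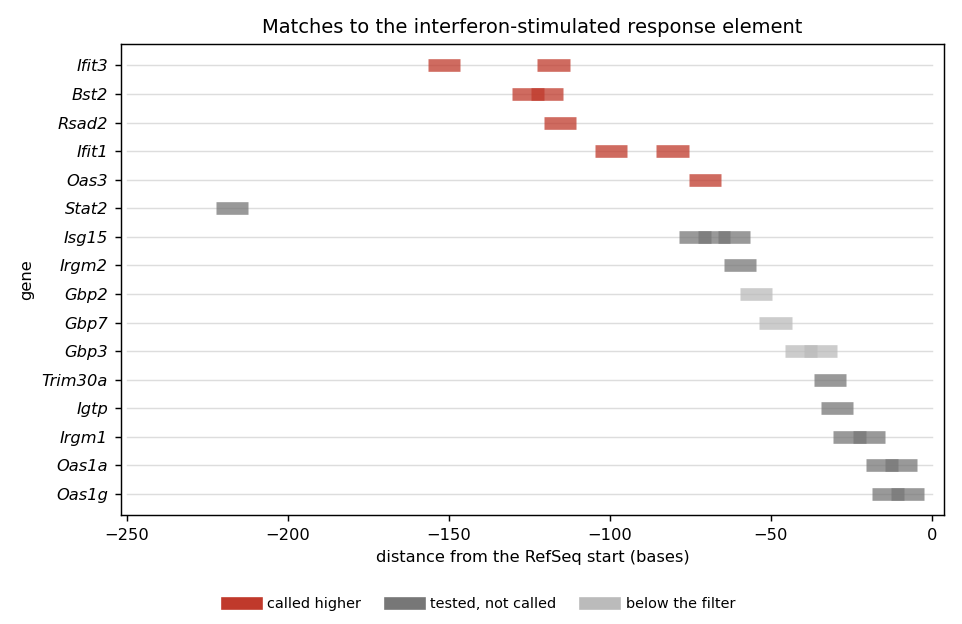
Position of each match to the ISRE core in the promoters of 16 interferon-stimulated genes, in bases before the RefSeq start (0), coloured by the result of the test between genotypes. In 15 of the 16 genes a match began within 150 bases of the start, and *Stat2* is the exception.

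The values are FPKM as calculated by the authors, that is, fragments scaled by transcript length and by the size of the library, and they can be compared between genes. *Esrra* had 49.4, 73.5 and 104 FPKM over the WT libraries and 10.4, 9.42 and 8.72 FPKM in the *Esrra*-/- libraries, each in the order of replicates 1, 2 and 3 that is kept below, so the libraries followed their labels. The epithelial marker *Epcam* was between 565 and 776 FPKM in all 6 libraries. Transcripts of 4 Y-linked genes summed to 27.3 to 46.7 FPKM in replicates 1 and 2 of each genotype and to 0.0487 and 0.222 FPKM in WT replicate 3 and *Esrra*-/- replicate 3, so that 1 library of each genotype lacked them. The methods of the study state a nominal depth only, and FPKM values give no read count, so the depth of each library is not known here. The most common ratio of low values to those of WT replicate 1 ran from 0.973 to 1.21 over the other libraries.

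More ISGs were called higher in the *Esrra*-/- epithelium than lower, led by the antiviral effectors *Rsad2* and *Cmpk2* and by *Ifi27l2a*. The comparison asks how the epithelial transcriptome differs when *Esrra* is lost. Log2(FPKM + 0.1) was compared with limma, which borrows information on the variance from all genes, in the 10596 genes that averaged more than 1 FPKM, and a gene was called at an unadjusted p under 0.05 with a log2 fold change beyond 0.58. Fold changes on this scale understate the change of genes with low values. Of the 51 ISGs, 45 passed the filter. *Oas2* and *Gbp6* did so through their *Esrra*-/- values, being under 1 FPKM on average in WT. Of the 45, 10 were called higher (22.2%), where 1.35% of all genes tested were, and 0 were called lower, where 3.28% of all genes tested were. At an unadjusted p under 0.05 with no fold limit, 18 ISGs were higher (40.0%; 4.3% of all genes tested) and 0 were lower (6.49%). For 22 ISGs the libraries of one genotype lay wholly apart from those of the other (48.9%), all of them higher in *Esrra*-/- mice, against 8.45% of all genes tested that were higher without overlap and 9.14% that were lower without overlap. The median log2 fold change was 0.45 over the 45 ISGs and 0.03 over all genes, and 43 of the 45 were above 0, as were 54.3% of all genes. Without *Oas2* and *Gbp6*, 10 of 43 ISGs were called higher, 21 were higher without overlap and 41 were above 0. After adjustment over all genes tested, 0 ISGs passed an adjusted p of 0.05 with limma, and 4 genes did in the whole table (0.0378%). The smallest adjusted p of an ISG was 0.0826, that of *Rsad2*.

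The count of 10 depended on single libraries. It was 6 without *Esrra*-/- replicate 3, 16 without *Esrra*-/- replicate 1 and 8 or 9 without any of the other libraries, and it was 4 when the libraries without Y-linked transcripts were left out. The median log2 fold change ran from 0.33 to 0.59 when single libraries were left out.

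**Figure D2:**
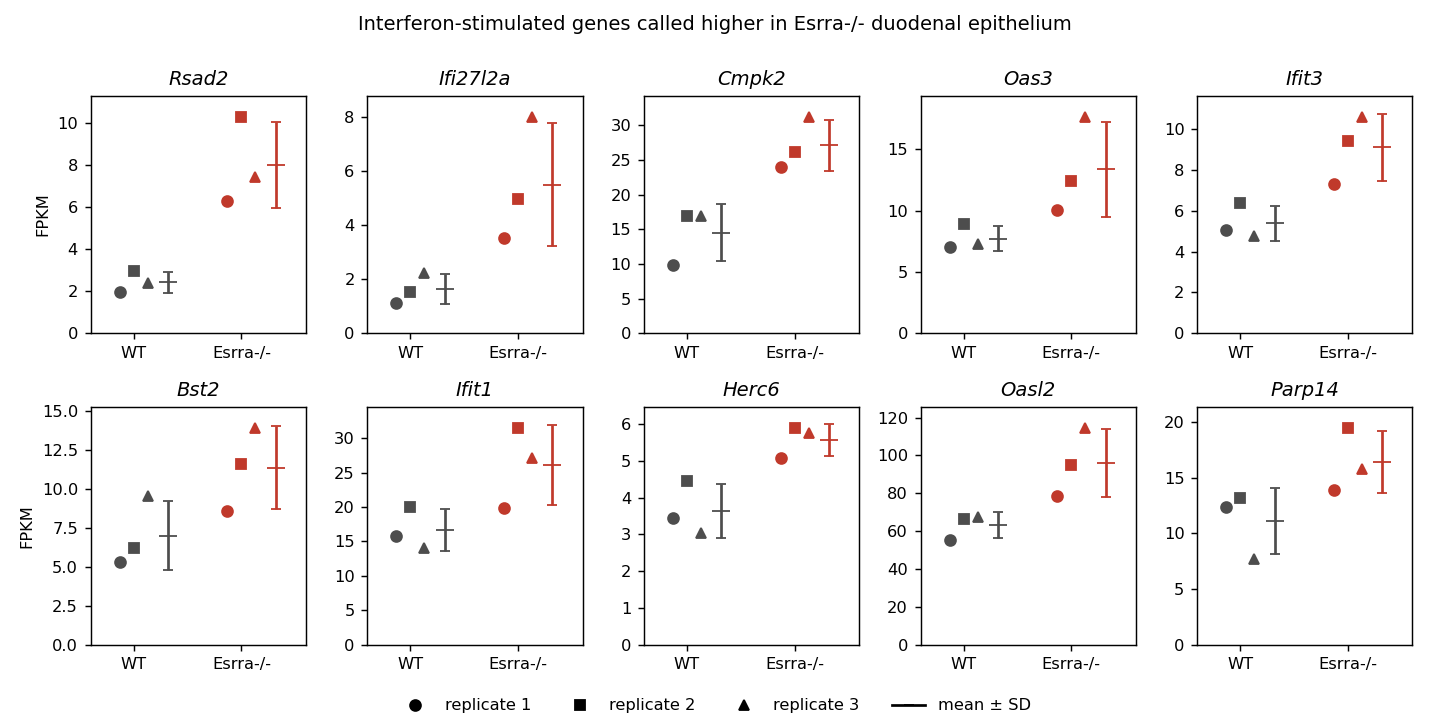
FPKM of the 10 interferon-stimulated genes called higher in *Esrra*-/- mice, with a point for each library and the mean ± SD of each genotype (n = 3 mice), each panel on its own linear scale from 0. The genotypes are apart for 8 of the genes, and overlap for *Ifit1* and *Bst2*.

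Of the 16 antiviral effectors tested, 7 were called higher (43.8%; 1.35% of all genes tested). That count was 4 without *Esrra*-/- replicate 3 and 3 when both libraries without Y-linked transcripts were left out. *Rsad2* encodes viperin, a radical SAM enzyme that converts CTP to a chain terminator of viral RNA synthesis. It had 1.96, 2.96 and 2.37 FPKM in WT and 6.31, 10.3 and 7.44 FPKM in *Esrra*-/- mice. Every *Esrra*-/- library lay above 2 times the highest WT library, and the log2 fold change was 1.67 (standard error, SE, 0.23, limma adjusted p = 0.0826). *Cmpk2*, a mitochondrial nucleotide kinase, is the neighbour of *Rsad2* on chromosome 12. Its values were 9.84, 16.9 and 16.9 FPKM in WT and 24.0, 26.2 and 31.2 FPKM in *Esrra*-/- mice. The genotypes did not overlap for *Cmpk2* either, with a log2 fold change of 0.93 (SE 0.23, limma adjusted p = 0.289). *Rsad2* and *Cmpk2* kept their call with any 1 library left out.

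The IFIT proteins bind viral RNA that lacks the host cap modification. *Ifit3* had 5.05, 6.36 and 4.75 FPKM in WT and 7.32, 9.40 and 10.6 FPKM in *Esrra*-/- mice, a log2 fold change of 0.74 (SE 0.18, limma adjusted p = 0.289). Its call held with any 1 library left out and was lost when both libraries without Y-linked transcripts were left out (0.54). For *Ifit1* the values were 15.8, 19.9 and 13.99 FPKM in WT and 19.9, 31.4 and 27.0 FPKM in *Esrra*-/- mice. Here WT replicate 2 and *Esrra*-/- replicate 1 stood at the same level, and the log2 fold change of 0.64 (SE 0.21, limma adjusted p = 0.375) fell short of a call without WT replicate 3 (0.53) and without *Esrra*-/- replicate 2 (0.50). *Ifit2*, of the same gene cluster, was below the filter, at 0.519 ± 0.0817 FPKM in WT and 0.406 ± 0.0570 FPKM in *Esrra*-/- mice (SD, n = 3 each), and its mean was lower in the mutants.

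Oligoadenylate synthetases make the messenger that activates RNase L on sensing of viral RNA. *Oas3* had 7.02, 8.92 and 7.25 FPKM in WT and 10.1, 12.4 and 17.6 FPKM in *Esrra*-/- mice, with no overlap (log2 fold change 0.75, SE 0.22, limma adjusted p = 0.328). Without *Esrra*-/- replicate 3, the highest library, its log2 fold change was 0.54 and it was not called. *Oasl2*, a synthetase-like protein, had 55.4, 66.5 and 67.6 FPKM in WT and 78.7, 95.2 and 114 FPKM in *Esrra*-/- mice. It was the second most abundant ISG, and its log2 fold change of 0.59 (SE 0.18, limma adjusted p = 0.342) lies just inside the limit of a call. It was 0.46 without *Esrra*-/- replicate 3, 0.50 without WT replicate 1 and 0.54 under quantile normalization, none of which gave a call.

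The other members of the family did not reach the call. *Oas1g* had 13.98, 15.7 and 14.4 FPKM in WT and 15.8, 21.7 and 26.0 FPKM in *Esrra*-/- mice (log2 fold change 0.50, limma, unadjusted p = 0.0323 and adjusted p = 0.417). The genotypes did not overlap, although WT replicate 2 and *Esrra*-/- replicate 1 differed by little. *Oasl1* had 51.1, 41.9 and 57.6 FPKM in WT and 58.3, 63.1 and 83.3 FPKM in *Esrra*-/- mice, also without overlap and with a log2 fold change of 0.44. *Oas2* was the lowest of the family, at 0.878, 0.982 and 0.804 FPKM in WT and 1.05, 1.57 and 1.46 FPKM in *Esrra*-/- mice, without overlap. For *Oas1a* and *Oas2* the log2 fold changes were 0.52 and 0.55, with 95% confidence intervals of -0.09 to 1.14 and -0.13 to 1.22 that include 0.

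*Bst2* encodes tetherin, which holds budding virions at the cell surface. It had 5.29, 6.17 and 9.54 FPKM in WT and 8.57, 11.6 and 13.9 FPKM in *Esrra*-/- mice. WT replicate 3 lay above *Esrra*-/- replicate 1, so the genotypes overlapped, and the log2 fold change was 0.71 (SE 0.26, limma adjusted p = 0.404). Its call was lost without WT replicate 1 (log2 fold change 0.53), WT replicate 2 (0.64), *Esrra*-/- replicate 2 (0.68) or *Esrra*-/- replicate 3 (0.55).

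*Samd9l*, a translation inhibitor, and *Adar*, which edits adenosines in RNA duplexes, had an unadjusted p under 0.05 but a smaller fold. *Samd9l* had 15.3, 14.8 and 15.5 FPKM in WT and 19.4, 23.2 and 17.3 FPKM in *Esrra*-/- mice, and *Adar* had 10.54, 10.6 and 8.91 FPKM in WT and 11.1, 14.2 and 13.8 FPKM in *Esrra*-/- mice. The log2 fold changes were 0.38 for each, with adjusted p of 0.397 and 0.422 from limma. The genotypes did not overlap for *Eif2ak2*, the kinase PKR, at 10.3, 9.78 and 8.38 FPKM in WT and 11.2, 11.4 and 10.97 FPKM in *Esrra*-/- mice (log2 fold change 0.24, 95% confidence interval -0.04 to 0.53). *Mx1*, *Mx2* and *Isg20*, an exonuclease, were low, with means of 0.674 to 2.16 FPKM in the genotypes, and *Mx2* was below the filter. The log2 fold change of *Isg20* was 0.09 (95% confidence interval -0.49 to 0.66).

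**Figure D3:**
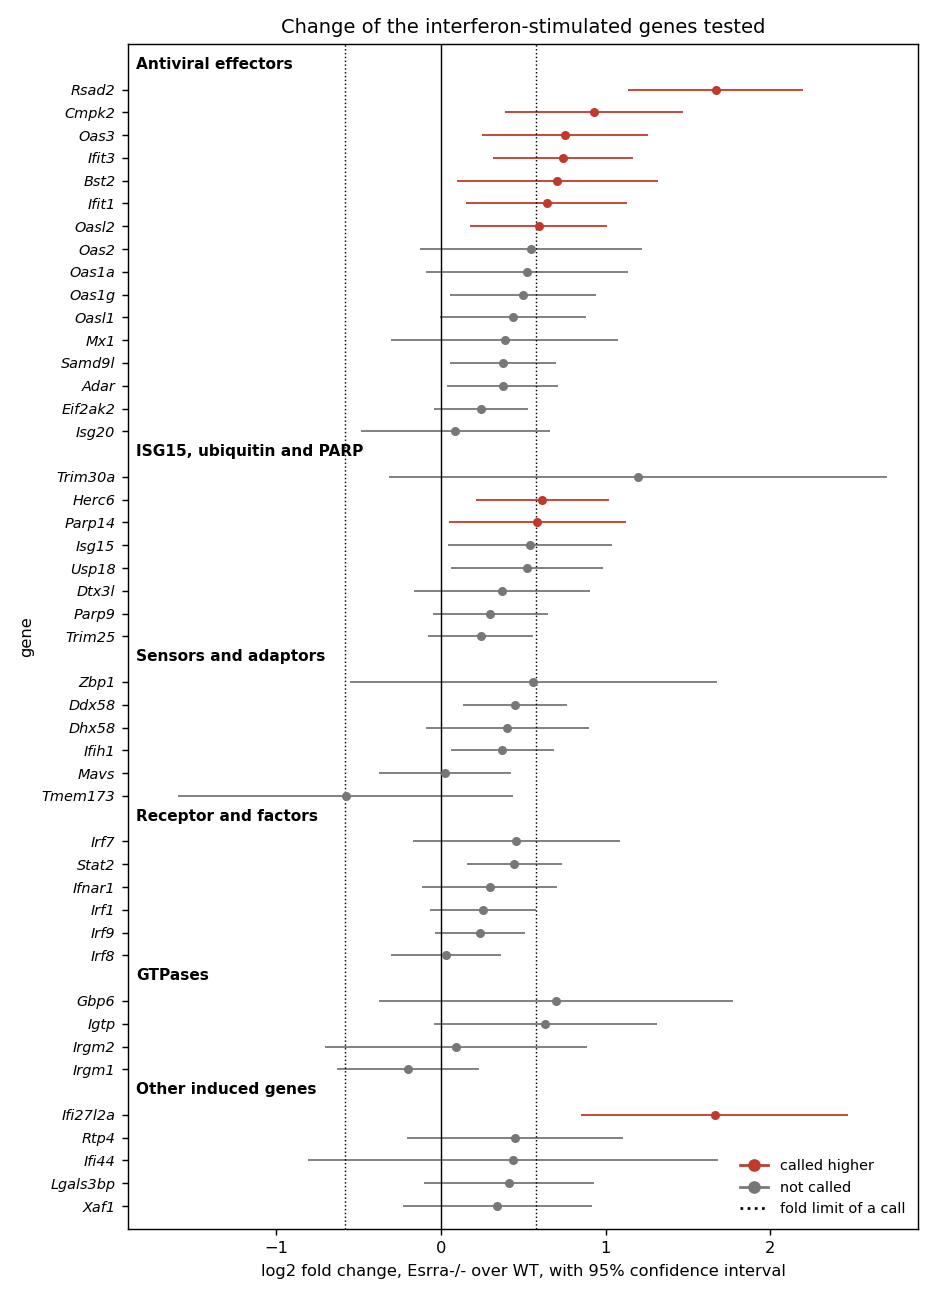
Log2 fold change (*Esrra*-/- over WT, on log2(FPKM + 0.1)) with its 95% confidence interval from limma for the 45 interferon-stimulated genes tested, grouped by role, with called genes in red and dotted lines at the fold limit. The points lie above 0 for 43 of the genes, *Tmem173* and *Irgm1* being below it, and 7 of the 10 calls are antiviral effectors.

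Of the 8 genes linked to ISG15, a ubiquitin-like protein, to ubiquitin or to ADP-ribose, 2 were called higher (25%; 1.35% of all genes tested), *Herc6* and *Parp14*. Both calls were lost without WT replicate 3. *Herc6* is the ligase that attaches ISG15 in mice. It had 3.45, 4.45 and 3.03 FPKM in WT and 5.09, 5.89 and 5.76 FPKM in *Esrra*-/- mice, a log2 fold change of 0.62 (SE 0.17, limma adjusted p = 0.326). Its call was lost without WT replicate 3 (0.50), without *Esrra*-/- replicate 2 (0.577) and with a pseudocount of 1 (0.51). *Parp14*, an ADP-ribosyltransferase, had 12.3, 13.2 and 7.72 FPKM in WT and 13.9, 19.4 and 15.8 FPKM in *Esrra*-/- mice. The log2 fold change of 0.59 (0.585 before rounding, limma adjusted p = 0.427) was 0.35 without WT replicate 3, the lowest library, and the call was also lost without *Esrra*-/- replicate 2 (0.46) or replicate 3 (0.60, with an unadjusted p of 0.0647). *Dtx3l* and *Parp9*, which encode a ubiquitin ligase complex and lie beside *Parp14* on chromosome 16, had log2 fold changes of 0.37 and 0.30 and overlapping genotypes, and of 0.16 and 0.19 without WT replicate 3.

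*Isg15* itself was just short of a call. It had 28.0, 29.4 and 33.8 FPKM in WT and 35.1, 40.3 and 60.5 FPKM in *Esrra*-/- mice, without overlap (log2 fold change 0.54, limma, unadjusted p = 0.0377 and adjusted p = 0.429). *Usp18*, the protease that removes ISG15 and dampens IFNAR signalling, had 4.94, 6.19 and 6.16 FPKM in WT and 6.28, 9.45 and 9.59 FPKM in *Esrra*-/- mice (log2 fold change 0.52, limma, unadjusted p = 0.0308 and adjusted p = 0.414). In both genes *Esrra*-/- replicate 1 stood close to the highest WT library, and without that library both were called, at 0.70 and 0.72. Without *Esrra*-/- replicate 3, the highest library for both genes, the log2 fold change was 0.31 for *Isg15* and 0.42 for *Usp18*, with an unadjusted p above 0.05 in limma for each. *Trim25*, which ubiquitinates RIG-I, had a log2 fold change of 0.24 (95% confidence interval -0.08 to 0.56).

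Of the 6 sensors and adaptors, 0 were called (1.35% of all genes tested were called higher and 3.28% lower). *Ddx58* and *Ifih1* were higher at an unadjusted p under 0.05 in limma (33.3%; 4.3% of all genes tested). *Ddx58* had 18.2, 17.4 and 18.6 FPKM in WT and 23.2, 22.4 and 28.9 FPKM in *Esrra*-/- mice (log2 fold change 0.45, limma, unadjusted p = 0.0121 and adjusted p = 0.342). *Ifih1* had 15.1, 14.6 and 14.3 FPKM in WT and 17.6, 17.6 and 22.2 FPKM in *Esrra*-/- mice (log2 fold change 0.37, limma, unadjusted p = 0.0245 and adjusted p = 0.393). The WT mice varied little in both genes, with an SD of 0.606 and 0.376 FPKM, and no *Esrra*-/- library reached down to them. *Dhx58* was low, at 3.62 ± 0.611 FPKM in WT and 4.85 ± 1.102 FPKM in *Esrra*-/- mice, and overlapped. *Mavs*, by contrast, had 39.5 ± 7.18 and 39.9 ± 4.37 FPKM (SD, n = 3 each), and its log2 fold change was 0.03 (95% confidence interval -0.37 to 0.43).

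*Tmem173* was close to the filter, at 1.84, 1.93 and 0.867 FPKM in WT and 0.590, 1.47 and 0.953 FPKM in *Esrra*-/- mice, with a log2 fold change of -0.58 (95% confidence interval -1.60 to 0.44) that ran from -0.92 to -0.28 when single libraries were left out. *Zbp1*, a sensor of Z-form nucleic acid, had 56.9, 53.2 and 16.5 FPKM in WT and 39.1, 63.2 and 65.5 FPKM in *Esrra*-/- mice. WT replicate 3 stood apart from the 5 other libraries, and without it the log2 fold change of *Zbp1* moved from 0.56 to -0.014.

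Of the receptor and the transcription factors, *Stat2* had the smallest p. It had 10.0, 9.82 and 9.33 FPKM in WT and 11.8, 13.7 and 14.5 FPKM in *Esrra*-/- mice (log2 fold change 0.45, limma, unadjusted p = 0.00788 and adjusted p = 0.326). *Irf9*, its partner, had 22.2, 22.0 and 24.5 FPKM in WT and 25.4, 27.6 and 28.0 FPKM in *Esrra*-/- mice, and *Ifnar1*, a chain of the type I receptor, had 10.0, 9.49 and 10.3 FPKM in WT and 10.9, 10.45 and 15.9 FPKM in *Esrra*-/- mice. The genotypes did not overlap for *Irf9* or *Ifnar1*, but the p was above 0.05 for both. Without *Esrra*-/- replicate 3 the log2 fold change of *Ifnar1* moved from 0.30 to 0.11. *Irf1*, the third most abundant ISG, had 74.2, 64.3 and 62.1 FPKM in WT and 73.2, 85.1 and 80.9 FPKM in *Esrra*-/- mice, and *Irf7* averaged 61.2 ± 14.5 FPKM in WT against 85.4 ± 28.6 FPKM in *Esrra*-/- mice (SD, n = 3 each). The genotypes overlapped for both. *Irf8* had 29.0 ± 4.24 and 29.5 ± 1.59 FPKM, a log2 fold change of 0.03 (95% confidence interval -0.30 to 0.36).

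The GTPases attack the vacuoles of intracellular pathogens and respond mainly to IFN-γ. Of the 4 GTPases tested 0 were called (1.35% of all genes tested were called higher and 3.28% lower). Of the 8 GTPases in the list, *Gbp2*, *Gbp3*, *Gbp7* and *Iigp1* were below the filter, and *Iigp1* was at most 0.0758 FPKM in any library. *Igtp* had 22.9, 19.9 and 10.55 FPKM in WT and 24.2, 31.3 and 23.9 FPKM in *Esrra*-/- mice, without overlap (log2 fold change 0.63, limma, unadjusted p = 0.063 and adjusted p = 0.486). The log2 fold change of *Igtp* was 0.30 without WT replicate 3 and 0.85, with a call, without WT replicate 1. *Irgm1* was the other ISG with a negative log2 fold change, -0.20 (95% confidence interval -0.63 to 0.23), and that of *Irgm2* was 0.09. The summed FPKM of the 8 GTPases was 51.0, 52.9 and 30.6 in WT and 44.3, 65.1 and 51.9 in *Esrra*-/- mice, so that WT replicate 3 was the lowest library, as it was for *Zbp1* and *Parp14*.

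Of the remaining induced genes, *Ifi27l2a*, which encodes a small membrane protein, had 1.13, 1.53 and 2.24 FPKM in WT and 3.54, 4.95 and 7.99 FPKM in *Esrra*-/- mice. The genotypes were well apart, with a log2 fold change of 1.66 (SE 0.35, limma adjusted p = 0.236), and the call held with any 1 library left out. Under the fit with Y-linked transcripts as a covariate its adjusted p was 0.0461, where 52 genes of the table passed 0.05, and over all alternatives it ran from 0.0461 to 0.545. *Lgals3bp*, a secreted glycoprotein, was the most abundant ISG, at 210, 251 and 318 FPKM in WT and 280, 356 and 398 FPKM in *Esrra*-/- mice. WT replicate 3 lay above *Esrra*-/- replicate 1, and the log2 fold change was 0.41 (95% confidence interval -0.10 to 0.93). *Rtp4*, *Xaf1* and *Ifi44* had log2 fold changes of 0.45, 0.34 and 0.44 with overlapping genotypes, and single libraries left out moved those of *Rtp4* and *Xaf1* to between 0.22 and 0.68 and between 0.16 and 0.59.

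The missing symbols have rows under older names, which were looked at after the other values had been seen and are not counted above. *Il28ra*, an older symbol of *Ifnlr1* in RefSeq, had 8.13, 6.70 and 9.37 FPKM in WT and 10.7, 9.13 and 12.4 FPKM in *Esrra*-/- mice, with overlap (log2 fold change 0.41, limma, unadjusted p = 0.0468 and adjusted p = 0.455). *Ifi27l1*, listed by RefSeq as a synonym of *Ifi27*, is an uncertain match, because *Ifi27* is also listed as a synonym of *Ifi27l2a*. It had 22.9, 25.4 and 42.9 FPKM in WT and 49.2, 43.0 and 55.1 FPKM in *Esrra*-/- mice and was called higher (log2 fold change 0.74, limma adjusted p = 0.38). WT replicate 3 and *Esrra*-/- replicate 2 were at the same level for this gene. *Ifi27l2b*, its neighbour on chromosome 12, was far more abundant, at 513, 476 and 697 FPKM in WT and 919, 844 and 1452 FPKM in *Esrra*-/- mice, without overlap (log2 fold change 0.91, limma adjusted p = 0.342). Reads may be divided between *Ifi27l2b* and the less abundant *Ifi27l2a*, so the separate values of *Ifi27l2a* are uncertain.

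**Figure D4:**
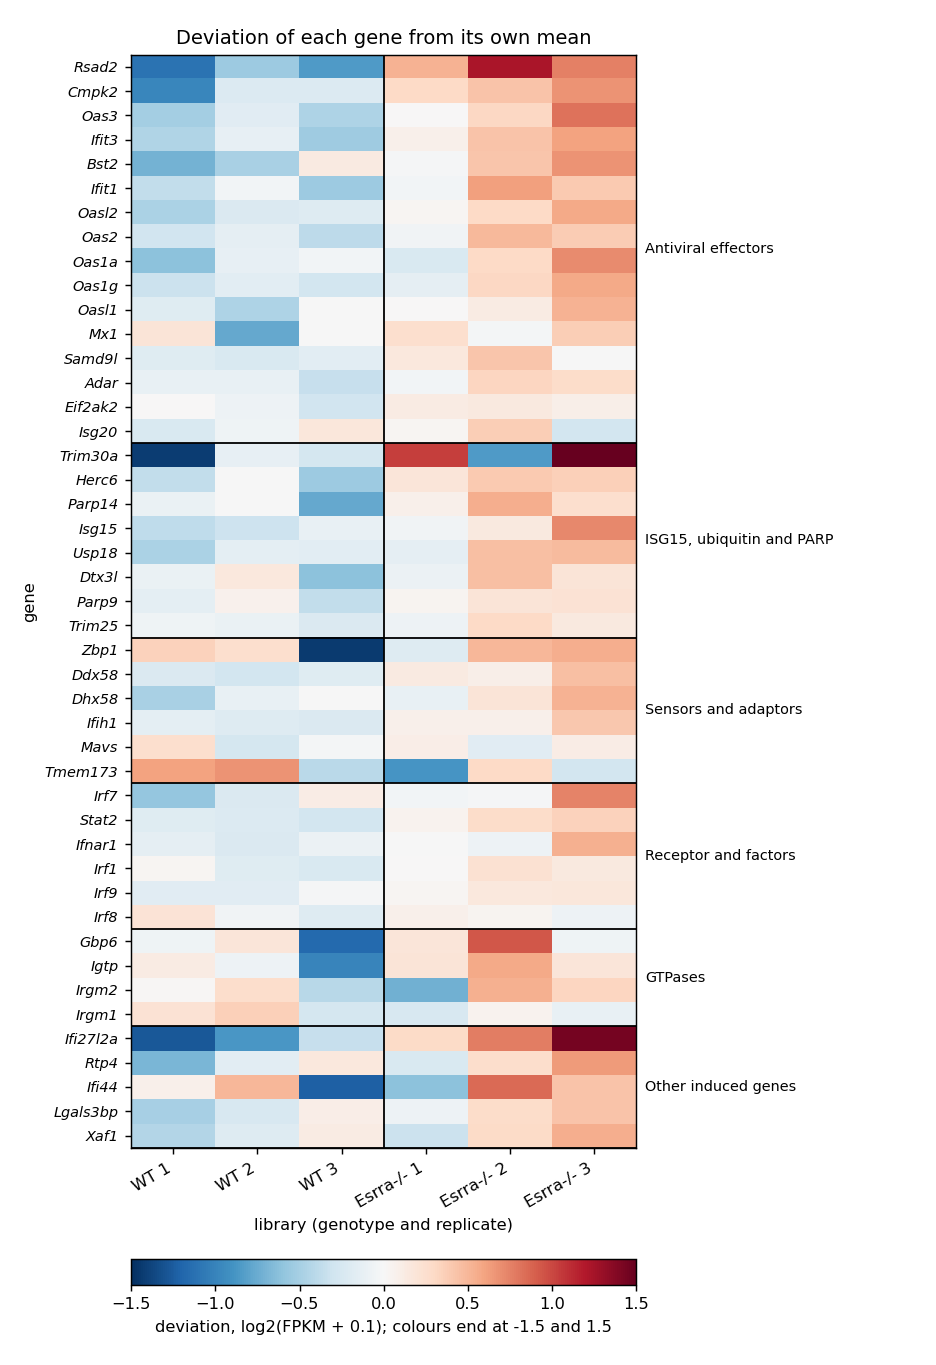
Deviation of each of the 45 interferon-stimulated genes tested from its own mean over the 6 libraries, on the log2(FPKM + 0.1) scale, with libraries in columns, genes in rows grouped by role, red above and blue below the mean. *Esrra*-/- replicates 2 and 3 are red over most genes, *Esrra*-/- replicate 1 is pale, and *Trim30a* does not follow the genotypes.

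The *Esrra*-/- mice were not alike. *Esrra*-/- replicate 3 had the highest value of the 6 libraries for 25 of the 45 ISGs (55.6%; 26.5% of all genes tested) and *Esrra*-/- replicate 2 for 16 (35.6%; 10.99%), while replicate 1 had it for 0 (14.2%). Among the *Esrra*-/- libraries, replicate 1 was the lowest for 33 of the 45, against 26.6% of all genes tested. The median deviation of the ISGs from their own means was -0.18, -0.15 and -0.23 (log2) in the WT libraries, and 0.01, 0.30 and 0.41 in the *Esrra*-/- libraries. That of all genes tested was between -0.02 and 0.04 in every library.

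Markers of other cells that respond to interferon were set beside these values. In a bulk library, fewer cells of a type and less RNA per cell cannot be told apart. Of 16 markers of T cells and intraepithelial lymphocytes 15 were tested and 0 were called (1.35% of all genes tested were called higher and 3.28% lower). Of the 15, 0 had an unadjusted p under 0.05 with limma (4.3% of all genes tested higher and 6.49% lower). The median log2 fold change of these markers was 0.09. Their summed FPKM, mostly from *Ccl5* and *Gzma*, was 261, 499 and 275 in WT and 194, 430 and 499 in *Esrra*-/- mice, so *Esrra*-/- replicate 1 was the lowest library and WT replicate 2 was as high as *Esrra*-/- replicate 3. The leukocyte genes *Ptprc*, *Coro1a*, *Lcp1* and *Laptm5* summed to 18.7, 29.2 and 17.8 FPKM in WT and 14.8, 29.96 and 21.1 FPKM in *Esrra*-/- mice. Of the myeloid markers, 7 of 11 were tested and 0 were called (1.35% of all genes tested were called higher and 3.28% lower). Their median log2 fold change was -0.08, and 4 of the 7 were below 0 (45.7% of all genes tested). *Itgam* had an unadjusted p of 0.0487 with a log2 fold change of 0.42, and *Siglech*, of plasmacytoid dendritic cells, was at 0.296 to 0.708 FPKM in all libraries. Markers of B and plasma cells were below the filter except *Igj*. It had 3.16, 1.90 and 3.63 FPKM in WT and 3.15, 14.6 and 1.91 FPKM in *Esrra*-/- mice, so *Esrra*-/- replicate 2 stood apart. In WT replicate 2, whose T cell markers were as high as in *Esrra*-/- replicate 3, the median deviation of the ISGs was -0.15, against 0.41 in *Esrra*-/- replicate 3. Within the *Esrra*-/- mice, the T cell sum and the ISG median deviation (0.01, 0.30 and 0.41) both rose from replicate 1 to replicate 3. The part of lymphocytes in the ISG result was not tested.

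**Figure D5:**
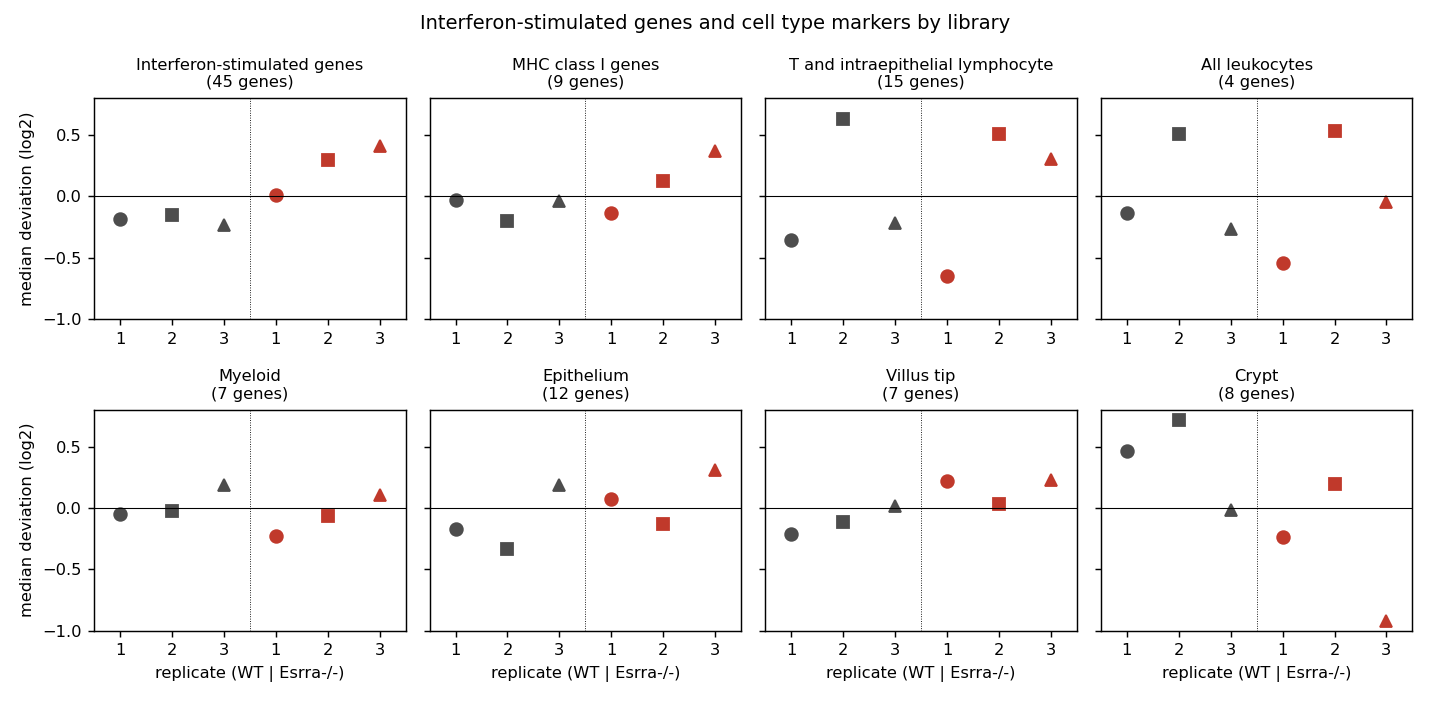
Median deviation of each gene list from the genes' own means, on the log2(FPKM + 0.1) scale, in the 6 libraries (WT in grey, *Esrra*-/- in red, replicate number on the axis). The interferon-stimulated genes lie at -0.15 or lower in WT and at 0.01 or higher in *Esrra*-/- mice, the villus tip markers differ by less (0.02 at most in WT, 0.03 at least in *Esrra*-/- mice), and the T cell markers are high in WT replicate 2 and in *Esrra*-/- replicates 2 and 3.

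Markers of position along the crypt-villus axis were examined as well. All 8 crypt markers had a negative log2 fold change (median -0.75), as did 45.7% of all genes tested, and 1 of the 8, *Smoc2*, a gene of stem cells, was called lower (3.28% of all genes tested). The sum of the 8, mostly *Olfm4*, was 240, 293 and 159 FPKM in WT and 141, 212 and 66.7 FPKM in *Esrra*-/- mice, with *Esrra*-/- replicate 3 the lowest. The 7 villus tip markers had a median log2 fold change of 0.28. Of the 7, 0 were called (1.35% of all genes tested were called higher and 3.28% lower), and 0 had an unadjusted p under 0.05 in limma. The crypt sums of the genotypes overlapped, and the part of crypt and villus content in the ISG result was not tested.

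The other genes of the interferon pathway were counted in the same way. The table held 90 of them, of which 60 were tested, 2 were called higher (3.33%; 1.35% of all genes tested), 2 were called lower (3.33%; 3.28%) and 4 were higher at an unadjusted p under 0.05 (6.67%; 4.3%), with a median log2 fold change of 0.20. Of the 60, 38 were further targets of interferon, with a median of 0.18. Of these 38, 23 were above 0 (60.5%; 54.3% of all genes tested) and 15 were below 0. The genes called higher were *Ddx60*, a helicase linked to RNA sensing, and *Apol9a*. *Ddx60* had 5.83, 7.02 and 5.44 FPKM in WT and 9.30, 11.5 and 13.9 FPKM in *Esrra*-/- mice, without overlap (log2 fold change 0.90, SE 0.18, limma adjusted p = 0.207), and *Apol9a* had 21.0, 39.2 and 32.0 FPKM in WT and 40.2, 51.4 and 49.3 FPKM in *Esrra*-/- mice (log2 fold change 0.65). *Ifitm3* and *Ifitm2*, which block the fusion of viruses with endosomes, were called lower. *Ifitm3* had 35.5, 36.3 and 25.6 FPKM in WT and 10.8, 23.5 and 11.7 FPKM in *Esrra*-/- mice, a log2 fold change of -1.15 (SE 0.31, limma adjusted p = 0.308), and *Ifitm2* had 68.4, 83.4 and 76.2 FPKM in WT and 44.0, 67.3 and 41.6 FPKM in *Esrra*-/- mice, a log2 fold change of -0.60. In both genes *Esrra*-/- replicate 2 was the highest of its genotype, as it was for the summed crypt markers, and a link between them was not tested.

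All 8 further genes of receptor signalling had log2 fold changes above 0, as did 54.3% of all genes tested. Of the 8, 1 was higher at an unadjusted p under 0.05 in limma (12.5%; 4.3% of all genes tested). This was *Tyk2*, a kinase of the type I receptor. It had 7.33, 6.94 and 6.22 FPKM in WT and 8.34, 8.45 and 9.89 FPKM in *Esrra*-/- mice (log2 fold change 0.37, limma, unadjusted p = 0.0221 and adjusted p = 0.392). *Ifngr1*, a chain of the IFN-γ receptor, had 51.2, 63.1 and 56.8 FPKM in WT and 64.3, 75.3 and 73.1 FPKM in *Esrra*-/- mice, without overlap (log2 fold change 0.32, limma, unadjusted p = 0.0581 and adjusted p = 0.480). Of 14 sensing genes and regulators 0 were called (1.35% of all genes tested were called higher and 3.28% lower). Of the 14, 0 had an unadjusted p under 0.05 in limma (4.3% of all genes tested higher and 6.49% lower), and 13 were above 0 (92.9%; 54.3%). Of the 12 interferon genes in the table, 9, among them *Ifnb1*, *Il28a* and *Il28b*, were listed at 0 in all 6 libraries, and *Ifng* was between 0.0505 and 0.246 FPKM. Of 9 MHC class I pathway genes 1 was called higher (11.1%; 1.35% of all genes tested), namely *Tap2*, a chain of the peptide transporter, at 25.8, 16.8 and 19.7 FPKM in WT and 27.2, 33.0 and 32.4 FPKM in *Esrra*-/- mice (log2 fold change 0.59). The median log2 fold change of these genes was 0.20.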

How the data were processed

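Per the labels and the methods of the study, the authors checked reads with FastQC 0.11.3, quantified them with kallisto (version given as 2.1.0) against mm9 and calculated FPKM with DESeq2 (version given as 2.2.1); the annotation is not given in the sources used here. The deposited table of FPKM values was analysed. A second deposited table holds the authors' own comparison and was not used. Groups follow the labels.

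Log2(FPKM + 0.1) of genes with a mean FPKM above 1 was fitted with limma 3.58.1 (lmFit, eBayes with trend, no covariate) in R 4.3.3, and p-values were adjusted by the Benjamini-Hochberg method across the genes tested and are two-sided. The fit was tested on simulated data. Thresholds are those of the study. Pseudocounts of 1 and 0.01, other filters, scalings and covariates and each library left out in turn were tried. The genes, roles and lists were chosen with earlier results of these data known. All listed genes could be named; values per library are given for those called, with p under 0.05, not overlapping or abundant. Promoters and gene order are from RefSeq (GRCm38.p6); those of *Dhx58*, *Zbp1*, *Tmem173*, *Oas2*, *Mx1*, *Mx2*, *Usp18*, *Parp9*, *Parp14*, *Gbp6*, *Iigp1*, *Ifi27l2a* and *Rtp4* were not used here. Replicate numbers were not taken to pair the samples. Libraries correlated at 0.948 to 0.971.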

Additional observations from a re-analysis of the deposited data

How the results depend on the processing

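With 3 mice in each genotype, an exact permutation test of a single gene could not go below p = 0.1, and genes near 1 FPKM are the least precise. The number of ISGs called higher was 10, and 8 to 11 under the other pseudocounts, filters, scalings, models and covariates. It was 4 in the 2 + 2 libraries with Y-linked transcripts, 6 to 16 when single libraries were dropped, 18 at an unadjusted p under 0.05 with no fold limit and 0 at an adjusted p under 0.05. The number called lower was 0 in all of these, and *Esrra* itself ranged from -3.19 to -2.66 (log2) when single libraries were dropped. The count of 18 was 11 without *Esrra*-/- replicate 3, 12 without WT replicate 1 or *Esrra*-/- replicate 2, 26 with Y-linked transcripts as a covariate and 27 with the replicate block. *Rsad2*, *Ifi27l2a* and *Cmpk2* kept their call under all 16 alternatives, and the other 7 called genes lost it under at least 1. Among genes that were not called, some changed sign, and the cause was not tested. Under quantile normalization *Mavs* was at -0.035 and *Irf8* at -0.011. In the 2 + 2 libraries *Zbp1* was at -0.15, *Mavs* at -0.036, *Irf8* at -0.016, *Irgm2* at -0.24 and *Ifi44* at -0.17. When single libraries were dropped, log2 fold changes ran from -0.014 to 0.87 for *Zbp1*, from -0.098 to 0.16 for *Mavs*, from -0.060 to 0.14 for *Irf8*, from -0.15 to 0.47 for *Irgm2*, from -0.066 to 0.86 for *Ifi44* and from -0.078 to 0.25 for *Isg20*.

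The replicate numbers of the labels were tried as a replicate block. The correlations of same-numbered deviations were 0.012, 0.26 and 0.38, and WT replicate 1 correlated best with *Esrra*-/- replicate 2, while WT replicates 2 and 3 correlated best with their own number. Replicates 3 of both genotypes also share the lack of Y-linked transcripts. No label ties a number to a litter or batch, so the numbers were not taken as pairs. With the block 11 ISGs were called, *Igtp* being added.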

Other observations

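*Trim30a*, an inhibitor of inflammatory signalling, and genes beside it on chromosome 7 varied between mice in a way that cut across genotype. These genes were looked at because *Trim30a* did not follow the other ISGs. *Trim30a* had 0.857, 2.26 and 2.04 FPKM in WT replicates 1 to 3 and 5.16, 1.32 and 7.70 FPKM in *Esrra*-/- replicates 1 to 3, a log2 fold change of 1.20 with a 95% confidence interval from -0.31 to 2.71. *Trim30d* had 1.52, 14.9 and 15.4 FPKM in WT and 39.7, 2.74 and 40.1 FPKM in *Esrra*-/- mice. *Trim12a* had 0.339, 12.4 and 12.5 FPKM in WT and 22.4, 0.904 and 31.5 FPKM in *Esrra*-/- mice. WT replicate 1 and *Esrra*-/- replicate 2 were thus the low libraries for all 3 genes, including 1 mouse of each genotype, and the other *Esrra*-/- mice were the highest. *Trim34a*, on the same stretch, had 1.72, 3.26 and 2.60 FPKM in WT and 5.59, 2.31 and 8.79 FPKM in *Esrra*-/- mice, and *Trim12c* did not follow this order. The genes of this cluster belong to one family, and reads may be divided between them, so the separate values are uncertain. Without *Esrra*-/- replicate 2 the log2 fold change of *Trim30a* was 1.92 (unadjusted p = 0.00305 from limma), and *Trim30a* then passed the limits of a call. It was 0.79 without WT replicate 1 and 0.69 without *Esrra*-/- replicate 3, with an unadjusted p of 0.291 and 0.312.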
